A study of Mus musculus with 16 samples.

Results

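The comparison of macrophages kept for 90 min with apoptotic cells against macrophages kept alone was taken over all genes of 1 count table. It rested on the 4 libraries headed as 90 min with apoptotic cells and the 4 headed as alone, 8 of the 16 libraries of the series. All libraries were total RNA of mouse macrophages of the Hoxb8 cell line, labelled as bone marrow in origin. Such lines come from myeloid progenitors that keep dividing while the homeobox factor Hoxb8 is active and mature into macrophages once it is withdrawn. The 90 min group had received apoptotic cells of the human T lymphoblast line Jurkat, and the alone group had received none. The remaining 8 libraries were macrophages after 45 min and 180 min with the same kind of apoptotic cells, 4 each, and serve here only to place 90 min in time. No agent, genetic change or sex was given in the labels for either group, and they do not say how many clones of the line were used or when the macrophages kept alone were collected. Exposure and time in culture therefore cannot be told apart, and neither can RNA made by the macrophages and RNA brought in by the human cells where a human read matches a mouse gene. The labels do not call the libraries of a group separate cultures, and the p-values then reflect the spread among these samples only, some or all of which may be technical. Libraries are numbered 1 to 4 within a group as names, and a number links no library to one of another group.

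Macrophages clear dying cells by efferocytosis, in which surface receptors and bridging molecules bind exposed phosphatidylserine, actin closes around the corpse, and the cargo is broken down in lysosomes. Dying cells also release nucleotides and lipids that act on receptors of the phagocyte, among them adenosine and prostaglandin receptors that raise cyclic AMP. Immediate early genes, such as those of the EGR, AP-1 and NR4A families, are transcribed within minutes of a signal and then encode factors that act on later genes, while polymerase held just after the start site lets such genes respond quickly. The series title places efferocytosis beside the release of paused polymerase, and the comparison at 90 min asks which transcripts stood higher or lower between the first wave and the latest time of the series.

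Counts per library summed to between 18.7 and 27.7 M alone and to between 13.6 and 17.4 M at 90 min, with means of 24.7 ± 4.07 and 15.7 ± 1.97 M (SD, n = 4 each). Of 17 macrophage markers, all 17 had counts, and their summed level was 17990 to 18420 CPM alone and 17420 to 18000 CPM at 90 min. CPM are counts divided by the library size in M, which is the unscaled total for summed markers and the scaled size elsewhere. Of 24 markers of T cells and of Jurkat cells, 13 had counts in at least 1 library of either group, with a summed level of 21.8 to 26.8 CPM alone and 23.5 to 27.7 CPM at 90 min. The other 11 were at 0 in all 8 libraries, among them the defining genes Cd3d, Cd3e, Cd3g, Trbc1, Trbc2 and Bcl11b, and any part of human RNA in the changes was not tested. Summed markers of neutrophils were at 111 to 125 CPM alone and 106 to 121 CPM at 90 min, those of dendritic cells at 5.97 to 7.17 and 5.81 to 8.38 CPM, those of B cells at 2.82 to 3.96 and 2.12 to 4.46 CPM, and those of erythroid and mast cells at 0 to 0.225 and 0 to 0.174 CPM. Progenitor markers summed to 411 to 436 CPM alone and to 340 to 377 CPM at 90 min. Of these 11 markers 3 were tested one by one, of which 1 was called lower and 2 were not called. The transcription factor Hoxb8 itself was at 27.8 ± 3.28 CPM alone and 25.2 ± 2.47 CPM at 90 min (SD, n = 4), a difference of -0.14 on the log2 scale that was not called.

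Transcripts changed in both directions at 90 min, but the rises were larger than the falls. By edgeR's quasi-likelihood test with Benjamini-Hochberg adjustment, at an adjusted p under 0.05, 2986 of 14168 genes were called, 21.1% of those tested. Of these, 1573 (11.1% of all tested) rose and 1413 (9.97%) fell, and the counts of each gene list below are to be read against these shares. A gene of low level could pass the filter on low counts through the group where it was high, so medians over tested genes are descriptions only. The called rises had a median of 0.45 on the log2 scale, 1.36-fold, and the called falls a median of -0.23, 1.18-fold. A change of under 1.5-fold was measured for 2297 of the called genes. At least 2-fold rises numbered 303 and at least 2-fold falls 33, or 62 and 5 where the average log2 CPM was 2 or more. The rule for genes named beyond the lists took, from that more abundant set and without overlap of the groups, the 15 largest rises and 15 largest falls of genes with a proper symbol. The 4 libraries at 90 min lay wholly above or wholly below the 4 alone for 3003 genes, 21.2% of those tested. In a bulk sample, fewer cells of a type and less RNA per cell cannot be told apart, and this holds for every change given here.

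**Figure D1:**
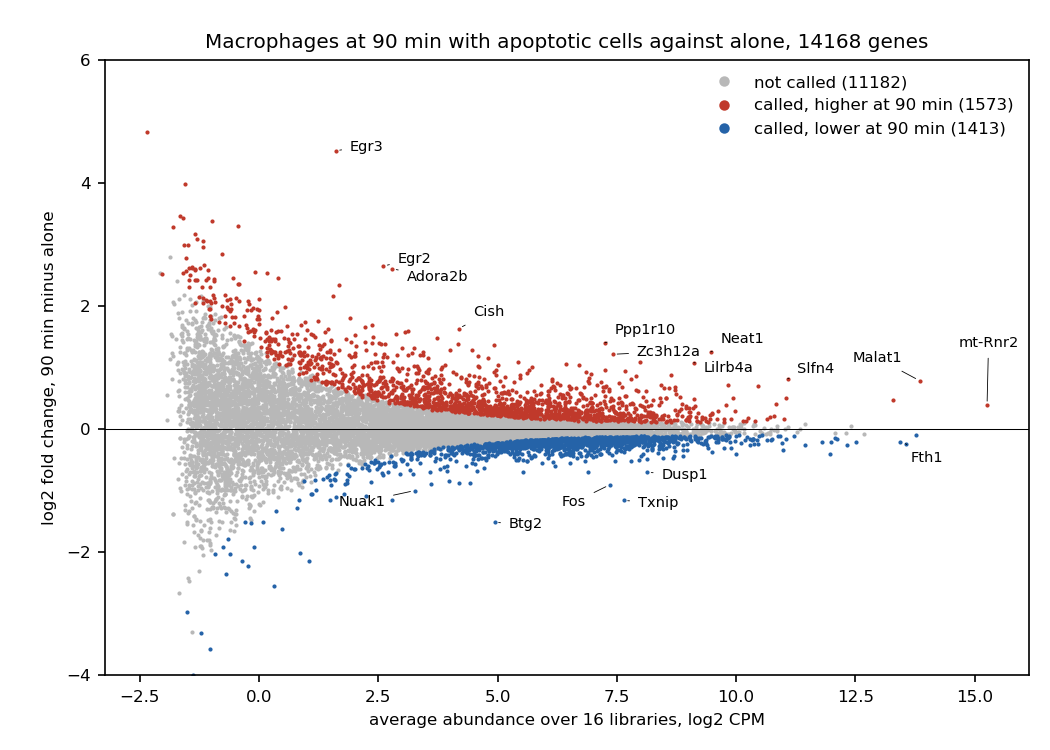
Log2 fold change at 90 min against alone for each of 14168 tested genes, against its average abundance over the 16 libraries in log2 CPM. Each point is a gene, red where called higher (1573), blue where called lower (1413) and grey where not called. Egr3, Egr2 and Adora2b stand highest among the genes named on the plot, and Btg2 and Txnip lowest. The plot leaves out 1 gene below its range.

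EGR factors, DNA-binding zinc-finger proteins that recognise a GC-rich site, were among the genes that rose most, and so was their co-repressor gene Nab2. Of the 5 tested members of the EGR and NAB list, 4 rose, with a median of 1.29 on the log2 scale against 0.003 over all genes tested. Egr2 (ENSMUSG00000037868) was at 1.01, 1.802, 1.51 and 1.72 CPM in the libraries alone and at 8.69, 11.5, 8.35 and 8.94 CPM in those at 90 min. It rose by 2.65 on the log2 scale (SE 0.21, adjusted p = 1.39e-15), 6.28-fold, from 1.51 ± 0.355 to 9.36 ± 1.42 CPM (SD, n = 4). Egr3 (ENSMUSG00000033730) was close to absent alone, at 0.108, 0.47, 0.0755 and 0.215 CPM, and reached 4.38, 5.88, 4.32 and 5.11 CPM, a rise of 4.53, SE 0.37. The libraries of the 2 groups did not overlap for either gene. Egr1 was at 15.9, 12.7, 12.6 and 16.2 CPM alone and at 20.5, 30.3, 25.6 and 27.8 CPM at 90 min and rose by 0.87 on the log2 scale (SE 0.10, adjusted p = 7.98e-10), but it stood 1.40 below its 45 min level (adjusted p = 2.46e-18). Egr2 and Egr3 differed from their 45 min levels by 0.26 and 0.14 (adjusted p = 0.288 and 0.741). Nab2 encodes a co-repressor that binds EGR factors and is itself a known EGR target. Its level went from 10.3, 7.95, 8.496 and 8.85 CPM to 18.9, 22.8, 21.8 and 23.4 CPM, a rise of 1.29, SE 0.11, and it stood 1.16 above 45 min. The paralog Nab1 differed by 0.09 and was not called.

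The Egr2 gene has 5 annotated start sites in the RefSeq table of GRCm38.p6. More than 1 of their windows, 250 bases before to 50 after the start, held a CArG box, the site of serum response factor. The window shown, chr10:67537619-67537918 on the plus strand, was chosen from those that held the box. The sequence is shown because Egr2 had the largest of the 15 rises named by rule, with the CArG box in capitals, 72 bases before the start.

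Egr2 promoter: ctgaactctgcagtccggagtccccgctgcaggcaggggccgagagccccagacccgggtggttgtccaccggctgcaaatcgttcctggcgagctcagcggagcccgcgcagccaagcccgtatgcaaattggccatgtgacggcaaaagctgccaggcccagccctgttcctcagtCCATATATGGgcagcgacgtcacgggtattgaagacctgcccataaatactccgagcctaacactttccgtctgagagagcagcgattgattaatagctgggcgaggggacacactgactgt

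A CArG box was found in 131 of 9078 promoters of tested coding genes (1.44%) and in 2 of the 92 of genes that rose at least 2-fold (2.17%), so that the motif was rare in both. A match of letters is a description and no evidence of binding.

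Other immediate early genes were split between members above and members below the level of macrophages alone. All 3 NR4A receptors, orphan nuclear receptors induced by cyclic AMP and calcium, rose. Nr4a3 went from 0.469, 0.783, 1.09 and 0.912 CPM to 1.31, 3.43, 3.395 and 2.32 CPM (1.70, SE 0.40) and Nr4a1 from 3.06 ± 0.597 to 5.47 ± 1.27 CPM (0.83, SE 0.19). At 45 min Nr4a3 had differed from alone by 0.40 and was not called, and at 90 min it stood 1.30 above 45 min. Nr4a2 (0.99, SE 0.33) was not called without library 2 or 3 of the alone group or library 2 or 4 at 90 min (0.79 to 0.94), and its adjusted p ran from 0.0126 to 0.115 over the alternative settings. Among 12 AP-1 subunits, which pair as leucine-zipper dimers, 4 rose and 2 fell. The small Maf protein gene Maff (1.39, SE 0.17), Fosb (0.95, SE 0.17), Fosl2 (0.70, SE 0.046) and Atf3 (0.27, SE 0.039) were higher. Fosl2 was at 118, 114, 122 and 117 CPM alone and at 194, 188, 194 and 193 CPM at 90 min, a narrow spread within each group and no overlap. Fos went the other way, from 178, 167, 158 and 165 CPM alone to 95.6, 90.3, 84.5 and 85.7 CPM at 90 min, and fell by 0.91 on the log2 scale (SE 0.052, adjusted p = 2.61e-21). At 45 min Fos had been at 268 ± 18.6 CPM, so that 90 min lay 1.59 lower than 45 min (adjusted p = 3.3e-33). Jund also fell (-0.25, SE 0.053).

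Of 25 other tested immediate early genes 13 rose and 4 fell, with a median of 0.14. Myc (ENSMUSG00000022346), a helix-loop-helix factor that drives growth and biosynthesis genes, went from 13.4, 13.9, 13.9 and 11.7 CPM to 38.2, 32.4, 28.9 and 29.8 CPM. Its rise of 1.28, SE 0.10 was 2.43-fold, and every library at 90 min was above every one alone. The polo-like kinases Plk3 (1.02, SE 0.10) and Plk2 (0.51, SE 0.041) and the TGF-beta-induced factor Klf10 (0.61, SE 0.062) also rose. The zinc-finger factor Klf2, which restrains inflammatory activation of myeloid cells, went from 12.3, 10.8, 12.1 and 13.9 CPM to 6.35, 6.52, 7.71 and 5.98 CPM (-0.89, SE 0.14). The nuclear factor Csrnp2 (-0.62, SE 0.12) and the early gene Ier2 (-0.60, SE 0.11) fell with it. Among 13 phosphatases and other feedback regulators of MAP kinases, 7 rose and 2 fell. Dusp10 (0.81, SE 0.094), Dusp4 (0.39, SE 0.047) and Dusp16 (0.33, SE 0.065) were among the rises. Dusp1, which switches off p38 and JNK kinases, was at 311, 304, 316 and 294 CPM in the alone group and 199, 187, 191 and 175 CPM at 90 min and fell by 0.70 on the log2 scale (SE 0.045, adjusted p = 2.2e-19). Dusp6, a phosphatase for ERK kinases, fell too (-0.44, SE 0.058).

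**Figure D2:**
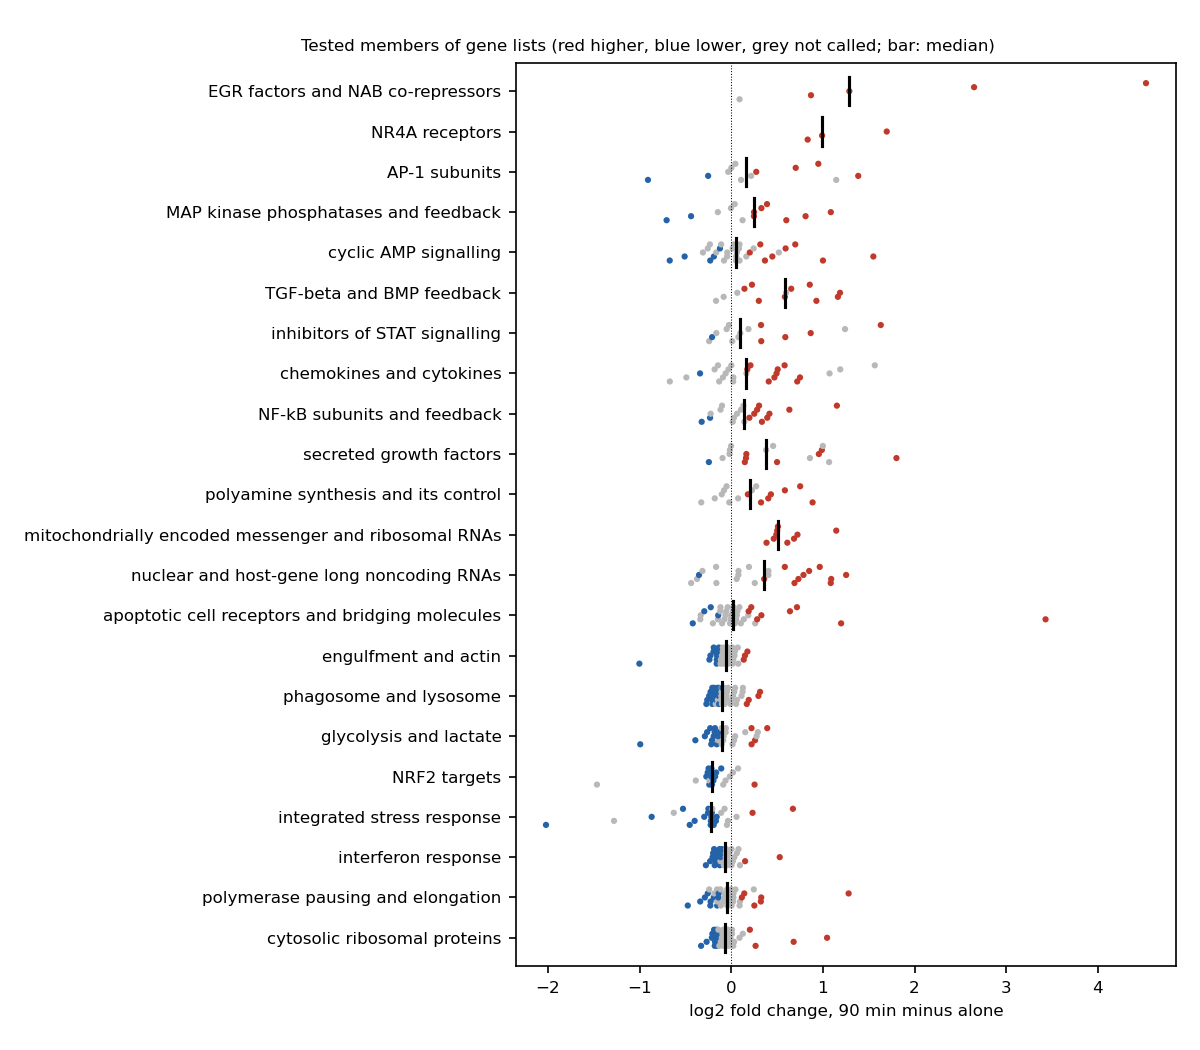
Log2 fold change at 90 min against alone of the tested members of 22 gene lists. Each point is a gene, red where called higher, blue where called lower and grey where not called, and each bar is the list's median over its tested members. The medians run from 1.29 for EGR factors and NAB co-repressors to -0.22 for the integrated stress response.

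The adenosine receptor gene Adora2b (ENSMUSG00000018500), whose low-affinity receptor couples to Gs proteins and raises cyclic AMP, had the second largest of the 15 rises named by rule, after Egr2. It was at 1.84, 1.49, 1.32 and 2.04 CPM alone and at 9.05, 9.83, 8.91 and 12.4 CPM at 90 min, from a mean of 1.67 ± 0.326 to 10.04 ± 1.601 CPM (SD, n = 4). The lowest library at 90 min was well above the highest alone. It rose by 2.60 on the log2 scale (SE 0.18, adjusted p = 2.39e-18), 6.08-fold, and stood 2.22 above 45 min and 0.68 below 180 min. The rise was that of 1 receptor and not of the adenosine list, in which 1 of 11 tested members rose and 1 fell. The other tested adenosine receptors, Adora2a (0.01) and Adora3 (-0.95), were not called, nor were Nt5e (0.06) and Entpd1 (-0.02), which encode the surface enzymes that make adenosine from nucleotides. The nucleoside transporter Slc29a3 fell (-0.29, SE 0.047).

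The Adora2b promoter is shown because it held a consensus EGR site and the gene, like Egr2 and Egr3, was higher at 90 min than alone. Their times differed. At 45 min Egr2 and Egr3 stood 2.39 and 4.39 above alone, and Adora2b 0.39, which was not called. At 180 min Adora2b stood 0.68 above its 90 min level, and Egr2 and Egr3 stood 0.75 and 1.14 below theirs. Any part of the site in the rise was not tested. The window was chr11:62248734-62249033 on the plus strand (RefSeq, GRCm38.p6), and the capitals mark the site on the reverse strand, 40 bases before the start.

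Adora2b promoter: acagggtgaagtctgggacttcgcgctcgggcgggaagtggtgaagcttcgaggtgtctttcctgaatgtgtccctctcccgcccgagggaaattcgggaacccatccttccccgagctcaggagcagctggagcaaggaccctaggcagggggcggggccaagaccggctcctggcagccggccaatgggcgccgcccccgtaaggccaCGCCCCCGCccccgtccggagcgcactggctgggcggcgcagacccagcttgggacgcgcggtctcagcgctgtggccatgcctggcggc

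The EGR site was searched as GCGGGGGCG and GCGTGGGCG on both strands, and neither form contains another of the motifs searched. It was found in 691 of 9078 promoters of tested coding genes (7.61%), in 13 of the 92 of genes that rose at least 2-fold (14.1%) and in 1 of the 12 of genes that fell at least 2-fold (8.33%). Over all called coding genes the shares were 8.67% of 992 that rose and 9.03% of 1108 that fell. The shares were not tested. The promoters of Nuak1, Klf2 and Tagap, 3 of the 15 falls named by rule, also held it, and those of Nab2, Cish, Rapgef3 and Flrt3 did not.

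Downstream of the receptors, 8 of 32 tested cyclic AMP signalling genes rose and 5 fell, with a median of 0.05. Rapgef3 (ENSMUSG00000022469) encodes EPAC1, an exchange factor for the small G protein Rap that is switched on directly by cyclic AMP. It went from 3.25, 2.62, 2.83 and 2.63 CPM to 8.91, 7.39, 9.48 and 7.66 CPM and rose by 1.55 on the log2 scale (SE 0.18, adjusted p = 2.49e-10). Ptger4, which encodes the Gs-coupled prostaglandin E2 receptor EP4, was at 31.3, 32.98, 30.3 and 33.5 CPM alone and at 69.1, 63.9, 59.1 and 63.97 CPM at 90 min (1.001, SE 0.067). All 4 libraries at 90 min were above all 4 alone for both genes. Of the phosphodiesterases, which break down cyclic AMP, Pde3b (0.70, SE 0.12), Pde8a (0.45, SE 0.059) and Pde7a (0.32, SE 0.069) rose, while Pde4a (-0.08), Pde4b (-0.04) and Pde2a (-0.16) were not called. The salt-inducible kinase Sik1 (-0.51, SE 0.076) and the catalytic subunit Prkaca (-0.23, SE 0.066) were among the falls, which were 3 with upper-quartile scaling and in libraries thinned to 1 depth.

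Among inhibitors of cytokine signalling, 1 gene had a rise among the 15 named by rule. Cish (ENSMUSG00000032578), an SH2 protein that blocks STAT5 signalling downstream of cytokine receptors, was at 7.36, 9.36, 8.19 and 8.74 CPM alone and at 29.6, 24.6, 24.8 and 25.2 CPM at 90 min. It rose by 1.63 on the log2 scale (SE 0.11, adjusted p = 3.29e-19), 3.099-fold, and library 1 at 90 min stood above the other libraries, which lay close together. Cish differed from 45 min by 1.66 and from 180 min by -0.33. Socs1, which inhibits JAK kinases, went from 19.5, 15.9, 15.97 and 16.8 CPM to 30.8, 33.9, 30.2 and 29.4 CPM (0.87, SE 0.095), again without overlap. The adaptor Sh2b2 (0.59, SE 0.08), Socs3 (0.33, SE 0.052) and Socs4 (0.33, SE 0.058) rose less, so that 5 of 15 tested members of this list rose and 9 were not called, and the phosphatase gene Ptpn6 fell (-0.21, SE 0.05).

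Feedback genes of the TGF-beta and BMP pathways are transcribed in response to SMAD factors and restrain them, and 9 of the 13 tested rose, with a median of 0.59. Without library 3 or library 4 at 90 min, 1 fall was called too. The inhibitory SMAD gene Smad7 was at 8.91, 8.15, 9.21 and 9.07 CPM alone and at 16.2, 16.8, 16.3 and 17.9 CPM at 90 min (0.93, SE 0.11). Id2, an inhibitor of helix-loop-helix factors, went from 148, 149.8, 156 and 148 CPM to 275, 268, 274 and 276 CPM and rose by 0.86 on the log2 scale (SE 0.045, adjusted p = 2.19e-23). Within each group the SD of Id2 was 3.85 and 3.62 CPM, far below the difference between them. Smad6 (1.19, SE 0.23), Id1 (1.16, SE 0.18) and Pmepa1 (0.59, SE 0.13) rose as well. Inhba, which encodes the activin A subunit, a ligand of the same receptor family, was at 109.5, 109, 136 and 107 CPM alone and at 245, 201, 234 and 218 CPM at 90 min (0.96, SE 0.062). Library 3 stood apart in the alone group, and it too was below every library at 90 min. Of 17 secreted growth factors 7 rose, including the heparin-binding factor Mdk (1.80, SE 0.26) and Pdgfb (0.99, SE 0.14).

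**Figure D3:**
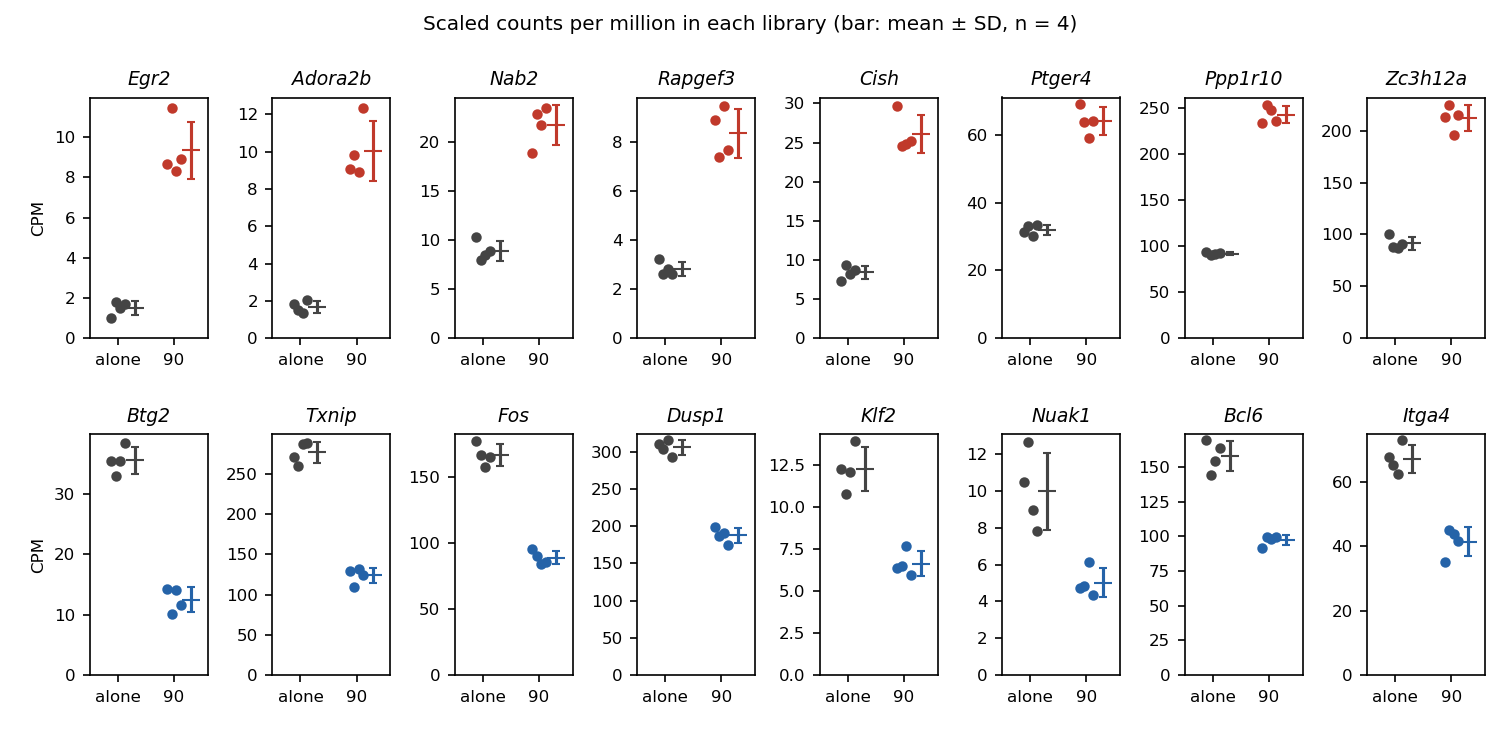
Scaled CPM of 16 genes in each of the 4 libraries alone (dark grey) and the 4 at 90 min (colour), each axis from 0, with the mean and SD beside the points. The upper row holds 8 genes that rose, such as Adora2b from 1.67 ± 0.326 to 10.04 ± 1.601 CPM, and the lower row 8 that fell, such as Btg2 from 35.6 ± 2.25 to 12.5 ± 2 CPM. The libraries of the 2 groups do not overlap in any panel.

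Some inflammatory mediators and some of their inhibitors rose. Of 25 tested chemokines and cytokines 9 rose, 1 fell and 15 were not called. Ccl7, a chemokine that attracts monocytes, was at 653, 678, 683 and 679.7 CPM alone and at 1179, 1038, 1126 and 1096 CPM at 90 min and rose by 0.72 on the log2 scale (SE 0.041, adjusted p = 2.29e-21). Tnf went from 129, 107, 124 and 123 CPM to 188, 214, 211 and 202 CPM (0.75, SE 0.051). Every library at 90 min was above every library alone for both. Il1b (0.58, SE 0.13), Ccl2 (0.51, SE 0.039), Ccl4 (0.49, SE 0.072) and Ccl3 (0.41, SE 0.064) also rose, and Ccl5, a chemokine for T cells, fell (-0.34, SE 0.045). Cxcl2 (-0.06), Il10 (-0.18) and Il6 (-0.14) were not called at 90 min. Of 20 NF-kB subunit and feedback genes 9 rose, 2 fell and 9 were not called. The rises included the inhibitor genes Nfkbid (1.15, SE 0.097), Nfkbia (0.42, SE 0.056) and Tnfaip3 (0.63, SE 0.043), which encode IkB proteins and a ubiquitin-editing enzyme, and Nfkbiz was among the falls (-0.23, SE 0.055).

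Zc3h12a (ENSMUSG00000042677), which encodes Regnase-1, an endonuclease that destroys inflammatory messenger RNAs, was at 101, 87.5, 86.9 and 91.1 CPM alone and at 213, 225, 196 and 215 CPM at 90 min. It rose by 1.22 on the log2 scale (SE 0.051, adjusted p = 1.11e-27), 2.32-fold, and was 0.92 above 45 min. Within its list of mRNA decay and antiproliferative regulators 4 of 16 rose and 3 fell, Btg2 by the most. Of 33 tested interferon response genes 14 fell, 2 rose and 17 were not called, with a median of -0.07, against 9.97% lower over all genes tested. Irf2 (-0.28, SE 0.055), Oasl1 (-0.23, SE 0.056) and Irf7 (-0.19, SE 0.04) were among those that fell, and with upper-quartile scaling in place of the trimmed mean of M values 9 were called lower and 1 higher. Toll-like receptors and their adaptors were divided, 4 higher and 6 lower of 21, with Tlr2 (0.47, SE 0.072) up and Tlr9 (-0.40, SE 0.054) down.

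Of the 15 falls named by rule, those of Btg2 and Txnip were the largest. Btg2 (ENSMUSG00000020423), an antiproliferative protein that binds the CCR4-NOT deadenylase, was at 35.6, 33.02, 35.5 and 38.5 CPM alone and at 14.2, 10.2, 14.2 and 11.6 CPM at 90 min. It fell by 1.52 on the log2 scale (SE 0.092, adjusted p = 2.04e-20), 2.86-fold lower, and its mean at 45 min had been 55.3 ± 2.52 CPM, above the level alone. Txnip (ENSMUSG00000038393), an arrestin-domain protein that inhibits thioredoxin and glucose transport, went from 271, 260.2, 287 and 288 CPM to 129, 109.9, 131 and 125 CPM. It fell by 1.16 on the log2 scale (SE 0.053, adjusted p = 1.04e-25), 2.24-fold lower, and was 1.20 below 45 min (adjusted p = 1.13e-26). No library at 90 min reached the lowest library alone for either gene. The AMPK-related kinase gene Nuak1 went from 10.5, 12.7, 8.95 and 7.83 CPM to 4.75, 4.83, 6.15 and 4.35 CPM (-1.002, SE 0.15), with a wider spread alone than at 90 min. Bcl6, a transcriptional repressor that opposes inflammatory genes in macrophages, was at 169.5, 144, 154 and 163 CPM alone and at 91.7, 99.3, 98.1 and 99.7 CPM at 90 min (-0.70, SE 0.053). The integrin gene Itga4 went from 67.7, 65.3, 62.5 and 72.9 CPM to 34.98, 44.9, 43.9 and 41.8 CPM (-0.69, SE 0.076). The remaining falls named by rule were Tagap (-0.88, SE 0.11), Bicra (-0.87, SE 0.099), Chac1 (-0.87, SE 0.20), Ahdc1 (-0.84, SE 0.11), the small Cajal body RNA Scarna6 (-0.72, SE 0.18), Cebpd (-0.70, SE 0.13) and Bcorl1 (-0.68, SE 0.11). Where abundance reached an average log2 CPM of 7, the chromatin remodelling subunit Arid1a (-0.52, SE 0.051) and the zinc-finger gene Zfp710 (-0.51, SE 0.048) fell as well.

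The promoters of Btg2 and Dusp1, both higher at 45 min and lower at 90 min than alone, each held a full cyclic AMP response element, TGACGTCA, a palindrome that CREB proteins bind. The promoter of Fos, which was also higher at 45 min and lower at 90 min than alone, did not hold it. Those of Btg2 and Dusp1 are printed to show their shared site, in capitals. The windows were chr1:134079106-134079405 and chr17:26508423-26508722, both on the minus strand (RefSeq, GRCm38.p6), with the site 166 and 143 bases before the start.

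Btg2 promoter: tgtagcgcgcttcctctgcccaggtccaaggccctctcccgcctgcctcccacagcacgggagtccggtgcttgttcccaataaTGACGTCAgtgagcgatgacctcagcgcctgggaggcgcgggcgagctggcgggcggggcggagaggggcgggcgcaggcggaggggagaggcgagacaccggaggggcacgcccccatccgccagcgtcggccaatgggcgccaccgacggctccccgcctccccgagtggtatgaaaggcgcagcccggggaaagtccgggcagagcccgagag

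Dusp1 promoter: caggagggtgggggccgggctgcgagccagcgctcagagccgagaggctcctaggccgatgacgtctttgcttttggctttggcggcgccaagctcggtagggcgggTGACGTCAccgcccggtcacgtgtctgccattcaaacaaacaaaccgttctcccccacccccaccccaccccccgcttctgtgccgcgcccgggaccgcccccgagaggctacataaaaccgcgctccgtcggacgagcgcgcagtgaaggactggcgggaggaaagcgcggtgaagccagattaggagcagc

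Of all 9078 promoters of tested coding genes 3.66% held this element, against 4.35% of the 92 of genes that rose at least 2-fold, and over all called coding genes 4.23% of 992 that rose and 2.8% of 1108 that fell. It was found in 1 of the 12 promoters of genes that fell at least 2-fold (8.33%), that of Btg2, and also in promoters of Maff and Wdr5b, which rose. The AP-1 site, TGAGTCA or TGACTCA, was found in 4.63% of all and in 6.52% of those that rose at least 2-fold, an NF-kB site in 12.1% and 12%, and the E-box CACGTG, all on both strands, in 12% and 6.52%. Over all called coding genes that rose or fell the AP-1 site was found in 5.04% and 3.25%, the NF-kB site in 13.2% and 12.1%, and the E-box in 14% and 11.5%. None of these shares was tested.

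The other large rises did not fall into 1 list. Ppp1r10 (ENSMUSG00000039220), which encodes PNUTS, a nuclear targeting subunit of protein phosphatase 1 with a role in slowing polymerase II at the end of genes, was at 93.5, 90.2, 91.3 and 92 CPM alone and at 233, 253, 247 and 236 CPM at 90 min. It rose by 1.40 on the log2 scale (SE 0.048, adjusted p = 7.58e-32), 2.64-fold, and its p was the smallest of the rises at an average log2 CPM of 7 or more. The adhesion protein gene Flrt3 went from 7.86, 7.09, 8.76 and 7.403 CPM to 23.3, 19.6, 21.6 and 22.5 CPM (1.48, SE 0.12). Neither gene had overlapping groups. The ubiquitin ligase Trim17 (1.65, SE 0.21), the cell adhesion gene Iglon5 (1.42, SE 0.21), Wdr5b (1.34, SE 0.22), the olfactory receptor gene Olfr111 (1.31, SE 0.13) and the phosphatase Ptp4a1 (1.29, SE 0.21) completed the 15 rises named by rule, and Olfr111 and Ptp4a1 are uncertain because family members or neighbouring genes may share their reads. Ankrd28, a regulatory subunit of protein phosphatase 6, rose from 138 ± 3.88 to 264 ± 7.06 CPM (0.94, SE 0.049). Slfn4, a Schlafen gene of myeloid cells, was at 1820, 1854, 1518 and 1607 CPM alone and at 3307, 2916, 2792 and 2957 CPM at 90 min (0.82, SE 0.051). The inhibitory receptor gene Lilrb4a went from 364, 386, 328 and 371 CPM to 869, 692, 694 and 808 CPM (1.08, SE 0.063). Slfn4 and Lilrb4a have close copies in the genome, and how reads shared with those copies were counted is not given in the sources used here, so their values are uncertain. The transcription factor Cebpb was at 270, 241, 248 and 234 CPM alone and at 428, 412, 381 and 364 CPM at 90 min (0.67, SE 0.049).

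In the efferocytic machinery itself falls outnumbered rises for engulfment and actin and for phagosome and lysosome, but not for receptors and bridging molecules. Over all genes tested 11.1% rose, 9.97% fell and the rest were not called. Of 37 tested receptors and bridging molecules for apoptotic cells 8 rose, 4 fell and 25 were not called, with a median of 0.02. The scavenger receptor Stab1, which binds phosphatidylserine, was at 315, 302, 276 and 287 CPM alone and at 508, 470.4, 419 and 444 CPM at 90 min (0.64, SE 0.052). Cd300lf, another lipid-binding receptor, went from 254, 264, 243 and 238 CPM to 445, 417, 377 and 404 CPM (0.72, SE 0.048), and Olr1, the scavenger receptor LOX-1, from 3.61, 3.52, 3.59 and 3.75 CPM to 6.13, 8.61, 8.63 and 9.64 CPM (1.20, SE 0.16). For these 3 receptors all libraries at 90 min exceeded those alone. The tyrosine kinase receptor Mertk went down slightly, from 89.6, 86.9, 88.9 and 85.7 CPM to 70.8, 71.5, 72.1 and 72.1 CPM (-0.29, SE 0.054), and its ligand Gas6 fell (-0.42, SE 0.091). The receptor kinase gene Tyro3, the outlying point of its list, was barely detected, at 0.0363 ± 0.0506 CPM alone and 0.336 ± 0.286 CPM at 90 min. Its call (3.43, SE 1.11) did not hold without library 1, 2 or 3 of the alone group or library 4 at 90 min (2.72 to 3.54, with adjusted p from 0.0077 to 0.15 over all alternatives). Axl (-0.20), Mfge8 (0.02), Cd36 (0.04) and Lrp1 (0.07) were not called. Of 39 tested genes for engulfment and actin 10 fell and 3 rose, with Nuak1, Rhog (-0.23, SE 0.052) and Dock8 (-0.24, SE 0.044) among the falls. The number of rises was 0 without library 4 of the alone group and 1 without library 1 at 90 min. Of the 54 tested genes for phagosome and lysosome 19 fell and 4 rose, with a median of -0.10. The protease cathepsin D gene Ctsd was at 2989, 2875, 3016 and 2840 CPM alone and at 2235, 2627, 2588 and 2326 CPM at 90 min, a fall of 0.26 that was small beside those above but without overlap. Lgmn (-0.24, SE 0.038), Psap (-0.20, SE 0.031) and Cd68 (-0.21, SE 0.044) also fell, and the lysosomal calcium channel Mcoln1 rose (0.31, SE 0.057).

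Genes for handling the lipid load were divided. Of 22 cholesterol efflux, LXR and PPAR genes 6 rose and 7 fell. The fatty acid binding protein gene Fabp4 went from 16.5, 17.9, 15.6 and 15.7 CPM to 27.4, 30.6, 31.9 and 28.1 CPM (0.84, SE 0.09), and Ch25h (0.62, SE 0.12), which makes 25-hydroxycholesterol, and Ppard (0.46, SE 0.095) also rose. Apoe, the apolipoprotein that carries effluxed cholesterol, fell (-0.42, SE 0.088), as did the cholesterol transporter Abca1 (-0.15, SE 0.039). Sterol synthesis and uptake genes were mostly not called, 21 of 25, with Sqle (0.46, SE 0.085), an enzyme of cholesterol synthesis, among those higher.

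Falls outnumbered rises among integrated stress response, NRF2 and glycolysis genes, and rises outnumbered falls among polyamine genes. Of 25 integrated stress response genes, which are transcribed through Atf4 when translation initiation is limited, 15 fell and 2 rose, with a median of -0.22. Sesn2, a leucine sensor that inhibits mTORC1, was at 68.2, 59.4, 60 and 58.4 CPM alone and at 37.5, 53.7, 42.1 and 37.3 CPM at 90 min and fell by 0.53 on the log2 scale (SE 0.078, adjusted p = 3.46e-07). Library 1 of the alone group and library 2 at 90 min were the highest of their groups, and the groups still did not overlap. Ddit4, which also inhibits mTORC1, fell from 2.11 ± 0.5896 to 0.529 ± 0.234 CPM (-2.02, SE 0.40). Chac1, which degrades glutathione, fell (-0.87, SE 0.20), and so did Ppp1r15a (-0.45, SE 0.068), Atf4 (-0.25, SE 0.043) and Aars (-0.22, SE 0.046), while Cebpb and Cebpg (0.23, SE 0.055) rose. The cystine carrier Slc7a11, which the same response can induce, rose instead, from 49.5, 41.1, 52.7 and 47.7 CPM to 74.8, 68.7, 79.1 and 86.9 CPM (0.70, SE 0.068). Among carriers for amino acids and ions 3 of 23 rose and 3 fell, near the 11.1% and 9.97% of all genes tested, and the falls were 5 without library 3 at 90 min. Of 20 p53 targets 3 rose, 5 fell and 12 were not called, with Mdm2 (0.50, SE 0.041) up and Cdkn1a (-0.25, SE 0.045) and Trp53inp1 (-0.55, SE 0.07) down.

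Of 21 targets on the list for NRF2, the factor that induces antioxidant genes, 12 fell and 1 rose, the last being its own gene Nfe2l2 (0.25, SE 0.047). The list did not hold the cystine carrier Slc7a11, which rose. The ferritin heavy chain gene Fth1 was at 12470, 12290, 13050 and 12590 CPM alone and at 10130, 11030, 11180 and 10370 CPM at 90 min and fell by 0.24 on the log2 scale (SE 0.039, adjusted p = 2.91e-06). The groups did not overlap, and the falls of Cat (-0.25, SE 0.046), Gsr (-0.22, SE 0.054), G6pdx (-0.26, SE 0.043) and Ftl1 (-0.21, SE 0.041) were of like size. Fth1 and Ftl1 have processed copies in the genome, which makes their counts less certain. Of 30 tested genes for glycolysis and lactate 13 fell and 4 rose, with a median of -0.10. Hexokinase 2, Hk2, went from 128, 113, 123 and 114 CPM to 78.3, 100, 93.7 and 92.7 CPM (-0.39, SE 0.061), and Gapdh (-0.23, SE 0.045), Aldoa (-0.21, SE 0.04), Ldha (-0.19, SE 0.049) and Pkm (-0.18, SE 0.04) fell by less. The regulators Pfkfb3 (0.39, SE 0.044) and Hif1a (0.26, SE 0.05) and the glucose carrier Slc2a1 (0.22, SE 0.053) rose. Of 16 tested polyamine genes 7 rose, with a median of 0.20, and 1 fall was called without library 1 or 2 of the alone group. Odc1, the rate-limiting enzyme of the pathway, was at 76.2, 76.96, 84.99 and 76.9 CPM alone and at 138, 131, 128 and 134 CPM at 90 min and rose by 0.75 on the log2 scale (SE 0.056, adjusted p = 8.93e-17). The other rises included Smox (0.59, SE 0.07), the antizyme inhibitor Azin1 (0.43, SE 0.051) and Sat1 (0.40, SE 0.047), enzymes and regulators on both the making and the breakdown side.

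Several classes of noncoding RNA had higher medians than protein-coding genes, and others did not stand far from them. The median log2 fold change was 0.44 for 379 long intergenic noncoding genes, 0.42 for 381 antisense genes, 0.44 for 232 processed transcripts and 0.70 for 62 small nucleolar RNAs, against 0.03 for 349 processed pseudogenes and -0.015 for 11436 protein-coding genes. Of the long intergenic genes 16.1% rose and 0.528% fell, of the processed pseudogenes 3.73% and 0.573%, and of the protein-coding genes 10.9% and 12%. At 45 min the median of long intergenic genes had been -0.01, and at 180 min it was 0.32. Their share of all counts was 1.39 ± 0.104% alone and 2.27 ± 0.209% at 90 min (SD, n = 4), while that of protein-coding genes went from 93.3 ± 0.348% to 90.9 ± 0.488%. Most of the long intergenic share was Malat1. The median level alone was 0.384 CPM for small nucleolar RNAs, 0.913 CPM for long intergenic genes and 26.1 CPM for protein-coding genes. The noncoding classes thus lie near the filter on low counts, whose part in their positive medians was not tested, and no test compared the classes. Whether counting used strand is not given in the sources used here, so antisense and overlapping genes are uncertain. The nuclear retained RNA Neat1 (ENSMUSG00000092274), the scaffold of paraspeckles, was at 384, 454, 346 and 388 CPM alone and at 1049, 853, 853 and 997 CPM at 90 min and rose by 1.25 on the log2 scale (SE 0.073, adjusted p = 2.86e-21). Malat1, a nuclear speckle RNA, went from 10250, 12000, 9989 and 10930 CPM to 20570, 17050, 17420 and 19530 CPM (0.79, SE 0.055). The lowest library at 90 min was above the highest alone for both. Of the 23 tested RNAs of the nuclear and host-gene list 10 rose, among them the snoRNA hosts Snhg20 (0.97, SE 0.14), Snhg17 (0.85, SE 0.11) and Snhg3 (0.73, SE 0.17).

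**Figure D4:**
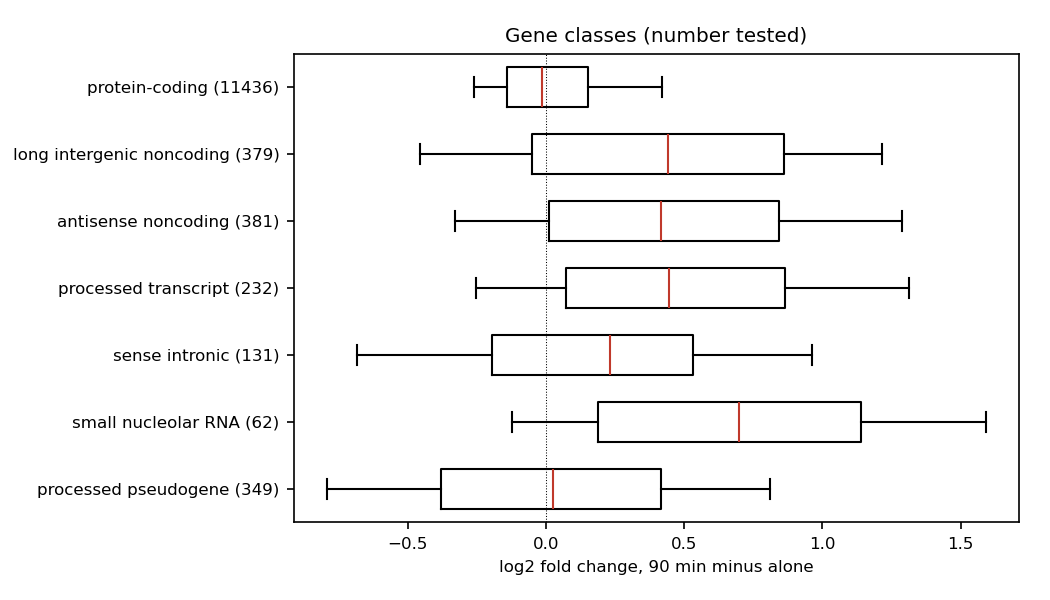
Log2 fold change at 90 min against alone by gene class, with the number of genes tested in parentheses. Each red line is the median, each box the middle of the distribution from the lower to the upper quartile, and the whiskers run from the 10th to the 90th percentile. The medians of long intergenic genes (0.44) and antisense genes (0.42) lie to the right of that of protein-coding genes (-0.015).

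Precursors of microRNAs were among the rising RNAs, and 3 of them are given here. The mature sequences are printed, with the seed, bases 2 to 8, in capitals, because they show what these transcripts carry, though mature microRNAs were not measured by these libraries. They are miR-155-5p at chr16:84714143-84714165, miR-22-3p at chr11:75463772-75463793, miR-17-5p at chr14:115043684-115043706 and miR-20a-5p at chr14:115044183-115044205, all on the plus strand (RefSeq, GRCm38.p6).

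mmu-miR-155-5p: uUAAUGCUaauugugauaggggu

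mmu-miR-22-3p: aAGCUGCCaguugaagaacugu

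mmu-miR-17-5p: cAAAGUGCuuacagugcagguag

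mmu-miR-20a-5p: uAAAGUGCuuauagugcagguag

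The last pair share the seed AAAGUGC and come from 1 host, Mir17hg, while miR-155 and miR-22 have seeds of their own. Mir155hg, whose microRNA is known as an amplifier of macrophage activation, was at 3.82, 5.41, 3.66 and 6.76 CPM alone and at 16.6, 9.54, 10.9 and 11.7 CPM at 90 min (1.32, SE 0.17). Mir22hg went from 25.6, 26.1, 21.4 and 25.8 CPM to 57.1, 53.6, 50.2 and 49.6 CPM (1.09, SE 0.081), with library 3 of the alone group below the rest of its group. Mir17hg went from 2.27, 3.56, 2.68 and 3.06 CPM to 6.06, 5.24, 7.64 and 5.63 CPM (1.09, SE 0.19) and stood 0.90 below its 180 min level. None of the 3 hosts had overlapping groups.

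RNA encoded by the mitochondrial genome also rose. Of the 15 mitochondrial messenger and ribosomal RNAs on the list 9 were tested, and all 9 rose, with a median of 0.51. The rest did not pass the filter on low counts. The cytochrome b gene mt-Cytb was at 124, 102, 92.6 and 114 CPM alone and at 152, 189.8, 162 and 191 CPM at 90 min and rose by 0.69 on the log2 scale (SE 0.071, adjusted p = 1.78e-11). The complex I gene mt-Nd6 lies opposite the other mitochondrial messenger RNAs, so that its counts are uncertain if counting ignored strand, and it went from 10.4, 5.95, 6.27 and 7.19 CPM to 15.99, 13.2, 17.9 and 19.1 CPM (1.15, SE 0.15). The large ribosomal RNA mt-Rnr2 went from 32850, 36180, 32400 and 34650 CPM to 39090, 45060, 45580 and 48000 CPM (0.39, SE 0.04). All 3 were apart between the groups and all 3 had been below the alone level at 45 min, so that 90 min stood 0.92, 1.62 and 0.72 above 45 min. The share of all counts from mitochondrial genes was 4.45 ± 0.223% alone, 3.54 ± 0.178% at 45 min and 5.89 ± 0.546% at 90 min (SD, n = 4 each). Of 36 nuclear-encoded respiratory chain genes 7 fell, the ATP synthase subunit Atp5d by 0.34, and 0 rose. The other 29 were not called, a share near that over all genes tested (11182 of 14168).

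Genes for the transcription machinery that the series title points to were split. Of 39 polymerase pausing and elongation genes 6 rose and 10 fell, with a median of -0.05. Polr2a (ENSMUSG00000005198), the largest subunit of RNA polymerase II, was at 457, 419, 464 and 441 CPM alone and at 300, 339.7, 311 and 331 CPM at 90 min and fell by 0.47 on the log2 scale (SE 0.048, adjusted p = 1.01e-11), without overlap. The elongation factor Supt5 (-0.22, SE 0.05) fell. Cdk9 (0.25, SE 0.056), the elongation kinase itself, and its partner cyclin Ccnt2 (0.33, SE 0.063) rose. Protein-coding genes were grouped into 10 equal classes by the summed length of their annotated exons. The share that fell was 7.85% in the shortest class and 21.7% in the longest, and the share that rose 5.67% and 11.3%. No test compared the classes, and the part of counts per gene in these shares was not tested. The medians of the 10 classes stayed between -0.045 and 0.004. Of 48 cytosolic ribosomal protein genes 14 fell, with a median of -0.07, and 4 rose. The falls were 9 under upper-quartile scaling and without library 4 at 90 min, and 8 without library 3 of the alone group. Ribosomal proteins have many processed copies, so single members are uncertain. Ribosome biogenesis genes were almost all not called, 36 of 40, and with upper-quartile scaling rises outnumbered falls where falls outnumbered rises before. The clock genes Bhlhe40 (1.04, SE 0.053), Dbp (0.76, SE 0.19), Bhlhe41 (0.57, SE 0.055) and Per1 (0.30, SE 0.065) rose, 4 of 16 tested. Of 22 heat shock and chaperonin genes 4 fell, cell cycle genes were not called in 26 of 30, and replication histone genes in 18 of 23. Of the 17 macrophage markers 2 rose and 5 fell, and the falls were 2 with upper-quartile scaling and without library 3 of the alone group or library 4 at 90 min. The rises were Cd14 and Mrc1, and neither was called without library 1 or 4 of the alone group or library 3 at 90 min. Their adjusted p ran from 0.0138 to 0.211 and from 0.00621 to 0.189 over all alternatives. Among the 6 T cell markers that passed the filter on low counts Tal1, a factor also made by blood progenitors, rose (0.85, SE 0.19), and the costimulatory receptor Cd28 fell (-0.37, SE 0.13). Cd28 was not called without library 3 or 4 of the alone group or library 1 or 4 at 90 min (-0.37 to -0.31, with adjusted p from 0.017 to 0.108 over all alternatives).

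Fewer genes differed between 90 and 180 min than between 45 and 90 min. From 45 min to 90 min 3984 genes changed (28.1% of those tested), 2096 higher and 1888 lower at 90 min. Between 90 min and 180 min 1618 genes differed (11.4%), 987 higher and 631 lower at 90 min. These comparisons share the 90 min libraries with each other and with the comparison against alone, so they are not independent. At 90 min 123 genes (0.868%) were higher than in each of the other 3 groups by an adjusted p under 0.05 in every contrast, and 49 (0.346%) were lower than in each. Without library 1 or library 4 at 90 min the first number was 76 and 79, and without library 2 at 90 min the second was 83. Ppp1r10 was among the highest, at 91.7 ± 1.38 CPM alone, 133 ± 6.88 at 45 min, 242 ± 9.32 at 90 min and 142 ± 3.04 at 180 min (SD, n = 4 each). Inhba stood 0.74 above 45 min and 0.75 above 180 min, Flrt3 1.09 and 0.61, and Slfn4 0.67 and 0.50. The transcription factor Arnt2 (0.90 and 0.74), the polycystin gene Pkd1l2 (0.68 and 0.83) and the histone genes Hist1h1d (1.65 and 0.81), Hist2h2be and Hist3h2a had the same shape, with the histone values uncertain because of near-identical copies. Bbs10 met the rule as well, but it was not called against alone without library 1 at 90 min (0.47, adjusted p = 0.0743, and 0.00138 to 0.0743 over the alternatives).

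Among the genes lowest at 90 min, Nuak1 lay 1.08 below 45 min and 1.21 below 180 min, and Klf2 0.99 and 1.26. Fos, at 89.02 ± 5.04 CPM at 90 min, was below its levels alone, at 45 min and at 180 min (123 ± 3.77 CPM). Rab40c, a small G protein of a ubiquitin ligase, was at 28.5 ± 2.66 CPM in the alone group, 20.1 ± 2.32 CPM at 90 min and 28.02 ± 1.35 CPM at 180 min. Csrnp2, Ripor1, Dedd2 and Gucd1 were lower than at 45 min by 0.60, 0.48, 0.35 and 0.33 and lower than alone and at 180 min too. Tbl2 was not called against alone without library 3 of the alone group (-0.28, adjusted p = 0.0695, and 0.00344 to 0.0695 over the alternatives), and its groups overlapped. Fbxl15 passed only narrowly (adjusted p = 0.0495) and was not called without library 1, 2 or 4 of the alone group or library 1, 3 or 4 at 90 min (-0.45 to -0.36, with adjusted p from 0.00813 to 0.145 over all alternatives). By contrast Adora2b, Rapgef3, Olr1 and Mir17hg were still lower at 90 min than at 180 min, by 0.68, 0.88, 1.82 and 0.90.

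**Figure D5:**
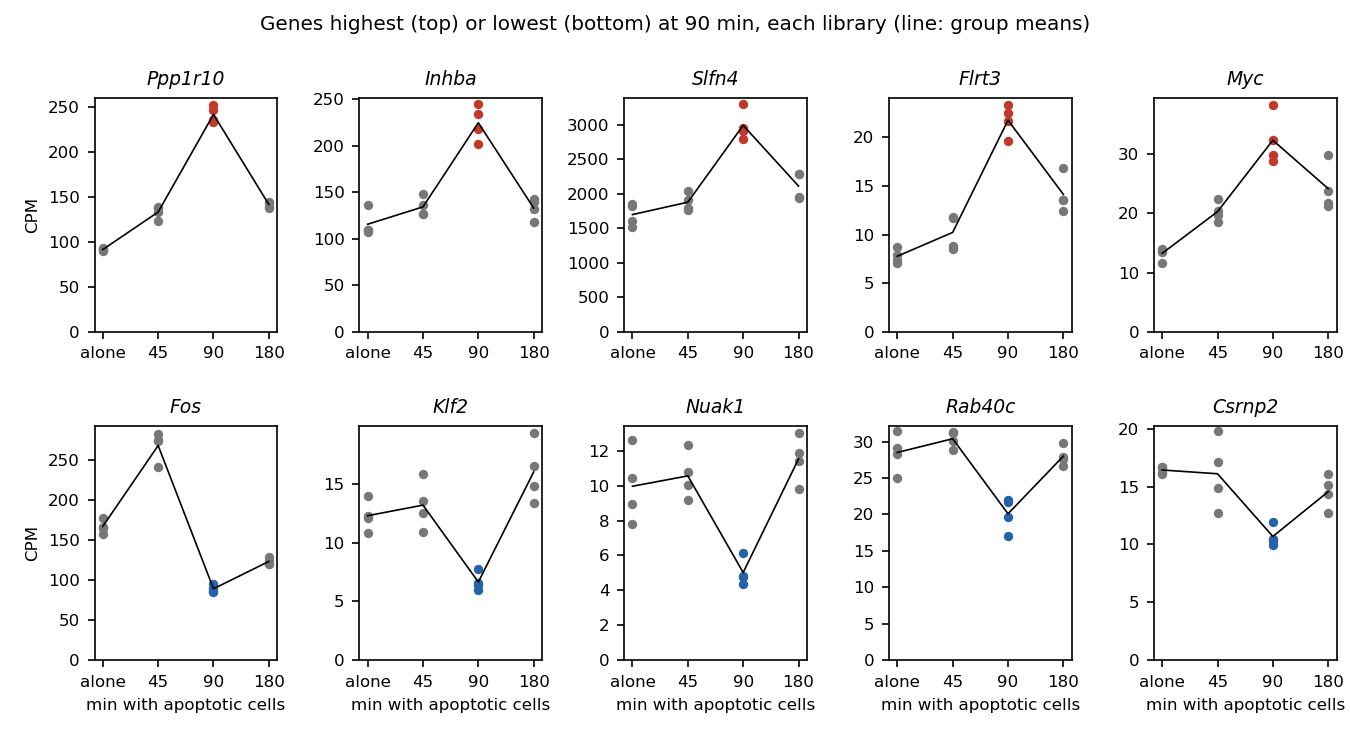
CPM in each library of the 4 groups, alone and after 45, 90 and 180 min, for 5 genes that were higher at 90 min than in every other group (top) and 5 that were lower (bottom), each axis from 0. Points are libraries and lines join group means, as for Ppp1r10 with 242 ± 9.32 CPM at 90 min against 142 ± 3.04 CPM at 180 min.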

How the data were processed

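Total RNA of mouse macrophages was measured by RNA sequencing in 16 libraries, of which the 4 at 90 min and the 4 alone carry the comparison. Per the labels' protocols, a column kit yielded the RNA, ribosomal RNA was removed and a strand-marking kit made the libraries. The authors deposited raw read counts per gene in 1 table, with no normalization. STAR 2.7.9a, SAMtools, HTSeq and the build mm39 are named, per the submitters' processing notes. The roles of these tools, the strand setting and the treatment of human reads are not given in the sources consulted, so counts may hold human reads that match mouse genes.

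Symbols, classes and lengths came from GENCODE M21 (52135 of 55416 IDs matched), an annotation of an older build, and no coordinates were taken from it. Promoters and microRNAs came from RefSeq tables of GRCm38.p6, with a window for 42 of 51 genes named by rule. edgeR's filter (minimum count 10, minimum total 15) left 14168 of 25663 genes with a count. Scaling followed the trimmed mean of M values, and CPM divide counts by the scaled library size. The summed levels of cell type markers divide counts by the unscaled library total instead. Version 4.0.16 of edgeR, under R 4.3.3, gave the quasi-likelihood F test. The model had 1 term, the group, and took its spread from the 16 libraries together. Genes were called where p was under 0.05 after Benjamini-Hochberg adjustment over those tested. The log2 fold change is the coefficient of the model. The SE beside it was derived from the test, as the absolute log2 fold change divided by the square root of F. Libraries of a group differed by more than sampling noise (chi-square per degree of freedom 3.84 to 7.95), so no pair was taken for 1 library deposited more than once. The biological coefficient of variation was 7.81%.

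The genes named were, by rule, the 15 largest rises and 15 largest falls where the average log2 CPM was at least 2, with no overlap between groups, the 5 of smallest p in each direction at an average log2 CPM of at least 7, and the 10 largest differences among genes highest, and among genes lowest, at 90 min at an average log2 CPM of at least 2, ranked by the smallest of the 3 differences. Members of 45 gene lists were named besides. The comparison and the lists were chosen with earlier results of these data known. Alternatives were DESeq2 1.42.0, upper-quartile scaling, other filters, only the 8 libraries, protein-coding genes only, libraries thinned to 1 depth, and leaving out each library. A few members of these lists are not reported here.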

Additional observations from a re-analysis of the deposited data

Results flagged for a closer look

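In 5 of 106 groups of 4 libraries checked, 1 library stood apart from the other libraries of its group by more than Dixon's critical share of the group's range, a limit that chance passes in about 1 of 20 groups. Cish was at 29.65 CPM in library 1 at 90 min. Inhba was at 136.2 CPM, Mir22hg at 21.45 CPM and Odc1 at 84.99 CPM in library 3 of the alone group. Sesn2 was at 68.24 CPM in library 1 of the alone group. None of these 5 genes lost its call when that library was left out.

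Only genes given library by library in the text were checked for a change of sign between times. For 9 of them the change against macrophages alone had opposite signs at 90 min and at another time, both called. The difference between the times was itself called by edgeR's quasi-likelihood test. Other genes were not part of this check, and some of them, such as Ccl4 and mt-Co1, also turned sign. Btg2, Fos, Dusp1 and Fth1 were lower than alone at 90 min and higher at 45 min, by 0.6363, 0.6817, 0.68 and 0.1738 on the log2 scale. The mitochondrial RNAs mt-Cytb, mt-Nd6 and mt-Rnr2 were higher than alone at 90 min, and at 45 min they had differed by -0.2373, -0.478 and -0.3396. Egr1, higher than alone at 90 min, differed by -0.3917 at 180 min, and Klf2, lower at 90 min, differed by 0.3693 at 180 min.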

How the results depend on the processing

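No paired analysis was possible because the columns of the table carry no replicate number. The number of genes called against macrophages alone was 2633 to 3251 under the other settings and 2369 to 2866 when 1 library was left out. Rises numbered 1386 to 1750 and 1282 to 1493, and falls 1110 to 1586 and 1069 to 1386. The share of calls that were higher was 52.7%, and 61.2% with upper-quartile scaling. Genes highest at 90 min numbered 85 to 134 under the other settings and 76 to 113 when 1 library was left out, and genes lowest 47 to 71 and 41 to 83. Calls between 90 and 45 min numbered 3508 to 4317 and 3335 to 3937, and between 180 and 90 min 1462 to 1763 and 1384 to 1588. Leaving out libraries of the alone, 45 min and 180 min groups in the comparisons of times was chosen after seeing the data. Of 260 called genes followed one by one, 230 kept direction and call under every alternative run, 30 lost the call under at least 1, and 0 turned direction. Depth limits low genes, and 11 of the 260 lost the call when libraries were thinned to the smallest total. Of 1350 counts of list members compared under the alternatives, 92 moved by over 1.5 times, 12 of them from 5 or more members. In 5 pairings of a list with an alternative, the balance of higher against lower members turned.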

Other observations

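Gene models of the annotation class TEC, which await experimental evidence, had a median log2 fold change of 0.10 at 90 min over 812 tested genes, after -0.68 at 45 min, and 0.17 at 180 min, each against macrophages alone. In this class 8.37% rose and 3.08% fell at 90 min. These gene models have not been assigned a function, and no test compared the class with the rest of the genes.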
